A study of Mus musculus with 33 samples.

Results

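A set of 10 genes that mark the inhibitory interneurons of the hippocampus were read on an Affymetrix MOE430 2.0 expression array in mice of 3 groups. The genes were Gad1, Gad2, Slc32a1, Pvalb, Calb2, Sst, Vip, Cck, Reln and Lhx6, and a probe set counted as a member when the platform annotation gave it exactly 1 of these genes. This rule found 17 of the 45101 probe sets of the table. Of the 17, 13 passed a filter that left out the lowest 40% of the 45037 non-control probe sets by mean signal, and every one of the 10 genes kept at least 1 probe set. The 4 that did not pass were 3 further probe sets of Slc32a1 and 1 of Reln.

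The animals were heterozygous male Tg2576 mice and wild-type littermates on a mixed SJL × C57BL/6J background, 20 weeks old. Tg2576 mice carry human APP with the Swedish familial Alzheimer's mutation behind the prion promoter. The 11 wild-type animals and 11 of the Tg2576 animals received vehicle (Tween 80 and carboxymethylcellulose) by gavage, and the other 11 Tg2576 animals received TO901317, an agonist of the liver X receptors, at 50 mg/kg once a day. Dosing lasted 7 days by one account in the labels and 5 days by the other, and tissue was taken 1 hour after the last dose. No group of wild-type animals with TO901317 was analysed here, so the drug was read in transgenic animals only. One array held the RNA of 1 animal's right hippocampus.

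Interneurons make GABA from glutamate with the decarboxylases encoded by Gad1 and Gad2 and load it into vesicles with the transporter encoded by Slc32a1. They fall into classes by the calcium-binding protein or neuropeptide they carry: parvalbumin cells target the soma and axon of pyramidal cells, somatostatin cells target dendrites, and many Vip and calretinin (Calb2) cells target other interneurons. Cck, Calb2 and Reln are not restricted to interneurons in this tissue, since pyramidal cells also transcribe Cck, mouse hilar mossy cells carry calretinin, and Cajal-Retzius cells make reelin.

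The promoters of the 3 members with the smallest p-values in the genotype comparison, Sst, Vip and Pvalb, are shown first. None of the 3 was called, and Sst and Vip are textbook targets of cAMP signalling. Each line gives the 150 bases before the annotated start, 5′ to 3′ on the gene's strand, from RefSeq on GRCm38.p6. Capitals mark TGACG or its reverse complement CGTCA, the core of the cAMP response element.

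Sst, chr16:23890845-23890994, minus strand: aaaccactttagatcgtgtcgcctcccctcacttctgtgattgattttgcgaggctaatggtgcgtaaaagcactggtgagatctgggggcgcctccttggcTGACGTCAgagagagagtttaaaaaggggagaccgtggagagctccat

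Vip, chr10:5639068-5639217, plus strand: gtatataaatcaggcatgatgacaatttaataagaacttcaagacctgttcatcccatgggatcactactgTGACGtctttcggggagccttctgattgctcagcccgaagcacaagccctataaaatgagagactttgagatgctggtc

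Pvalb, chr15:78206401-78206550, minus strand: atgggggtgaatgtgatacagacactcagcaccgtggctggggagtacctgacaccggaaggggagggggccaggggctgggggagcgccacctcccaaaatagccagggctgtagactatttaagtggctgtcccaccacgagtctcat

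In Sst the 2 cores overlap to form the full palindrome TGACGTCA, whose first base lay 48 bases before the start. The single core of Vip began 79 bases before the start. In a search of the 250 bases before the start on both strands, cores were also found in Cck (47 bases before the start) and Gad2 (33 bases), so that 4 of the 9 members with a window held one. The letters were not found in the windows of Gad1, Slc32a1, Pvalb (2 windows), Reln or Lhx6 (3 windows), and Calb2 was not searched. Over 32851 promoter windows of the same length the core stood in 17.8% and the full palindrome in 1.55%. These shares are per window, while the member count is per gene and some members have several windows, so the units differ. A match is a description of the letters and not a bound site. The arrays read transcripts only.

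The tissue label was checked first. Every array carried the excitatory neuron markers Slc17a7 (signal 537 to 1041), Neurod6 (434 to 846), Wfs1 (428 to 856) and Camk2a (1328 to 4169). The dentate granule cell markers Dsp (90.2 to 378) and Prox1 (23.1 to 83.9) were dimmer. Signals had been scaled to a common trimmed mean of 99.97, while array medians ran from 19.5 to 28.9. In vehicle Tg2576 replicates 3 and 4 the log2 ratio of the 3′ over the 5′ Gapdh control probe sets, a sign of RNA integrity, was 0.11 and 0.08, while the other 31 arrays lay at or below -0.08. In bulk tissue, fewer cells of a type and less RNA per cell cannot be told apart.

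Compared with wild type, vehicle Tg2576 hippocampus had lower Sst and Pvalb signal and higher Vip and Calb2 signal by point estimate, but none of the 13 member probe sets passed an adjusted p of 0.05 in any of the 3 comparisons. The differences were -0.24 for Sst, -0.22 for Pvalb and 0.31 for Vip, and 0.27 for the more variable Calb2, on the scale of log2(signal + 16), which understates the change of dim probe sets. The GABA-making genes, Cck, Reln and Lhx6 differed by at most 0.16 in either direction. With limma and Benjamini-Hochberg adjustment over 27022 probe sets, 0 of 13 members were called against 0.159% of all probe sets, and the smallest member adjusted p was 0.201. At an unadjusted p under 0.05 the count was 3 of 13, against 9.7% of all probe sets. Among the members 8 lay above 0 and 5 below, with a median of 0.05 against 0.0003 over all probe sets.

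Adding TO901317 to the transgenic animals gave 0 of 13 calls against 0.141% of all probe sets, and 0 of 13 at an unadjusted p under 0.05 against 10.5%. The member median was -0.04 against 0.004 over all probe sets, with 4 above 0 and 9 below. Between treated Tg2576 and wild type, which differ in both genotype and drug, 0 of 13 were called against 0.144%, and 4 of 13 had an unadjusted p under 0.05 against 8.2%. With both Tg2576 groups averaged against wild type, a comparison added after the values were seen, limma called 0 of 13 against 0.148%, and 4 of 13 had an unadjusted p under 0.05 against 8.44%. These comparisons share groups, so their values are not independent. The 2 groups overlapped for all 13 member probe sets in each of the first 3 comparisons, as they did for all but 7, 2 and 4 of the 27022 probe sets tested. The 95% interval reached 0.09 to either side of the estimate for the least variable member and 0.33 for the most variable, so small shifts were not detectable.

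**Figure D1:**
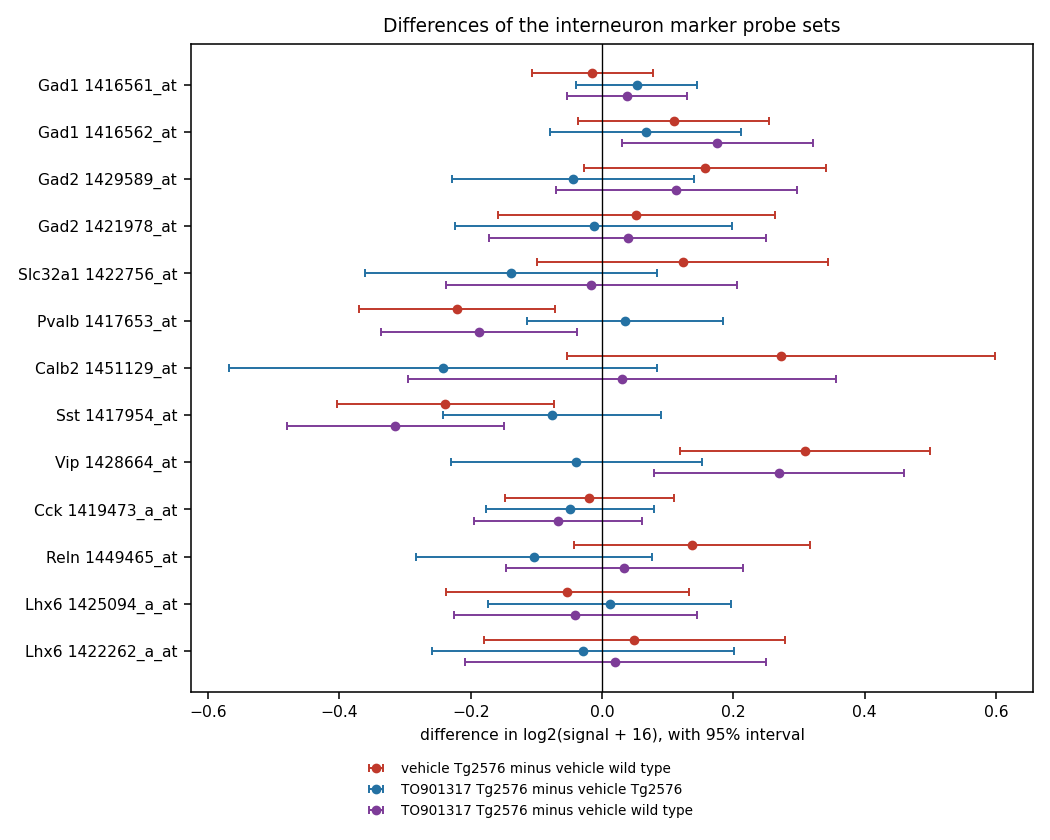
Difference in log2(signal + 16) with its 95% interval from limma for the 13 tested member probe sets (vertical axis), in vehicle Tg2576 minus wild type (red), TO901317 minus vehicle in Tg2576 (blue) and TO901317-treated Tg2576 minus wild type (purple). Pvalb and Sst lie left of 0 and Vip right of 0 in both comparisons with wild type; every blue interval spans 0.

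Gad1 (1416561_at) encodes GAD67, the enzyme that makes most of the brain's basal GABA. Its signal was 1239, 1406.5 and 1636 (lowest, median, highest of 11 animals) in wild type, 1248, 1379 and 1603 in vehicle-dosed Tg2576 and 1340.5, 1435 and 1567 in treated Tg2576. The 3 groups overlapped almost fully. The genotype difference was -0.01 (95% interval -0.11 to 0.08) and the drug difference 0.05 (-0.04 to 0.14). Gad1 was also the steadiest member within groups, with a log2 SD of 0.10 pooled over groups, against a median of 0.21 over all tested probe sets.

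A further Gad1 probe set (1416562_at) read somewhat differently. Its signal was 412, 606 and 669 in wild type, 476, 631 and 676 in vehicle-dosed Tg2576 and 553, 610.1 and 806 in treated Tg2576. Treated Tg2576 animals lay 0.18 above wild type (95% interval 0.03 to 0.32; limma p = 0.0193, adjusted p = 0.465), where the brighter probe set gave 0.04. Only 6 of the 11 treated animals were above the wild-type median, and the interval of the brighter probe set ended at 0.13.

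Gad2 (1429589_at) encodes GAD65, the form tied to synaptic vesicles. Wild-type animals read 245, 323 and 426, vehicle Tg2576 animals 231, 381 and 467 and treated animals 287, 359 and 482. Although 10 of 11 vehicle Tg2576 animals were above the wild-type median, the lowest Gad2 signal of all 33 arrays was also in that group. The genotype difference was 0.16 (95% interval -0.03 to 0.34; limma adjusted p = 0.6) and the drug difference -0.04 (-0.23 to 0.14). A dimmer Gad2 probe set (1421978_at) lay between 19.2 and 57.5 over all arrays and gave 0.05 and -0.01 for the same comparisons.

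Slc32a1 (1422756_at) encodes VGAT, the vesicular GABA transporter. Its signal was 115, 148 and 202 in wild type, 106, 160.3 and 225 in vehicle-dosed Tg2576 and 108, 139 and 202 in treated Tg2576. The genotype difference was 0.12 (95% interval -0.10 to 0.34; limma adjusted p = 0.774) and the drug difference -0.14 (-0.36 to 0.08; adjusted p = 0.703).

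In both Tg2576 groups the Slc32a1 signals were higher in replicates 1 to 5 than in most of replicates 6 to 11. In vehicle Tg2576 replicates 1 to 5 read 177 to 225 and replicates 6 to 11 read 106 to 160.3, with no overlap. In treated Tg2576 the same ranges were 139 to 202 and 108 to 141, which just overlap, and in wild type they were 120.0 to 151 and 115 to 202. The genotype difference was 0.47 over replicates 1 to 5 (limma adjusted p = 0.0926) and -0.16 over replicates 6 to 11 (adjusted p = 0.608). The labels name no batch, and the split was made on the numbering after the values were seen. The first principal component of all probe sets, with group means removed, also followed the numbering, and the split took up 39.0% of its variance.

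**Figure D2:**
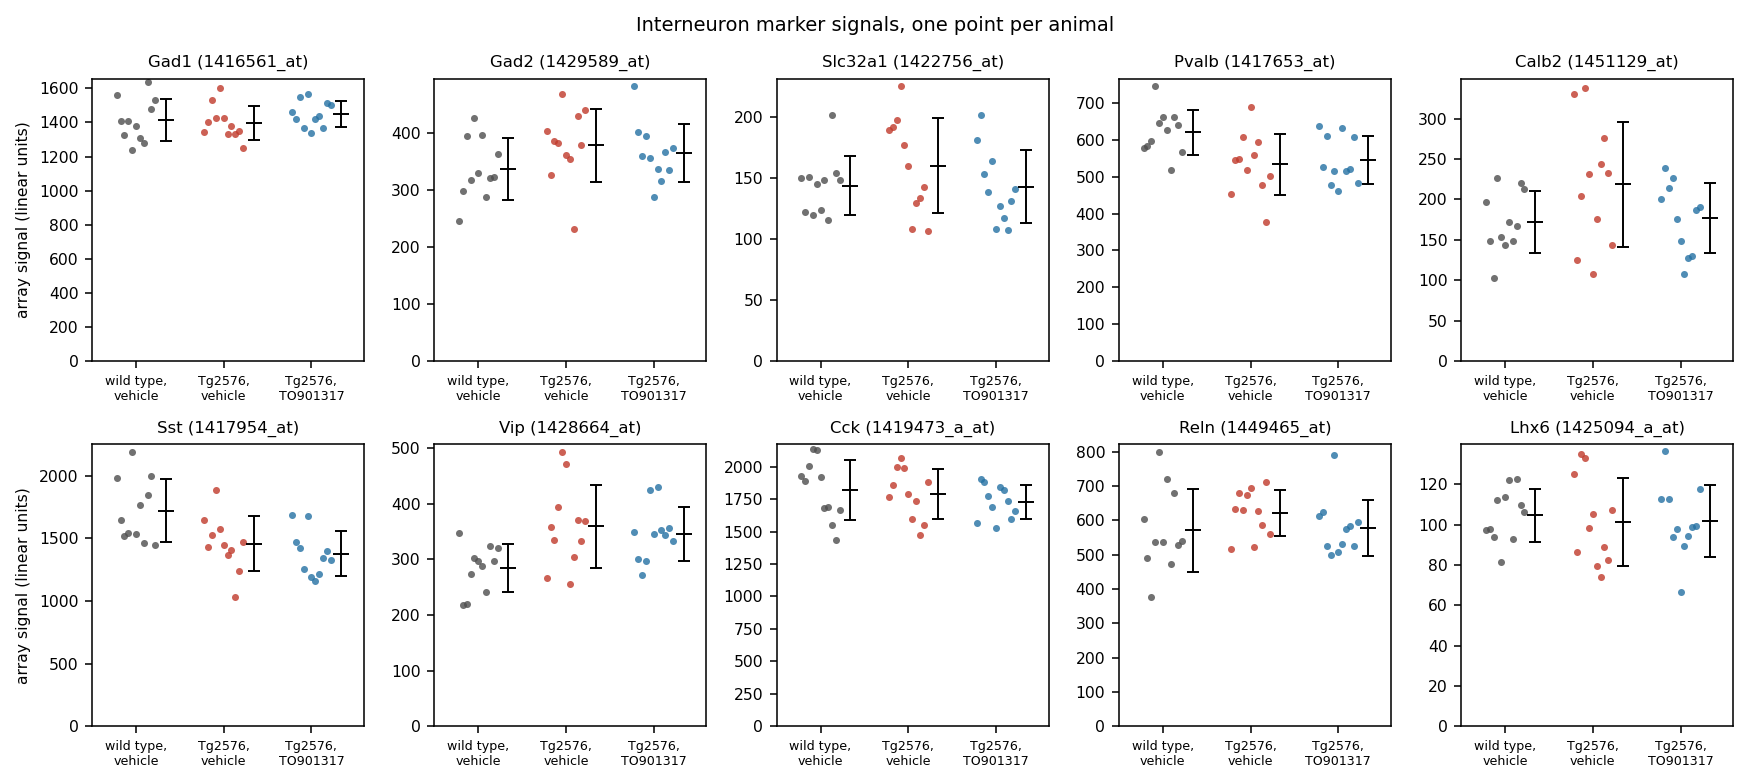
Array signal on a linear scale starting at 0, 1 point per animal, for the brightest probe set of each of the 10 genes; points run in replicate order from left to right within a group, and the bar beside each group is the mean ± SD (n = 11). Group ranges overlap in all 10 panels. Vehicle Tg2576 signals of Slc32a1 are 177 to 225 in replicates 1 to 5 and 106 to 160.3 in replicates 6 to 11. This split by number was made after the values were seen.

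Pvalb (1417653_at) encodes parvalbumin, the calcium buffer of fast-spiking basket and axo-axonic cells. Its signal was 517, 628 and 747 in wild type, 377, 544 and 688 in vehicle-dosed Tg2576 and 461, 521 and 637 in treated Tg2576. Both Tg2576 groups sat lower than wild type while overlapping with it, and they overlapped with each other nearly fully. Vehicle Tg2576 lay -0.22 from wild type (95% interval -0.37 to -0.07; 10 of 11 animals below the wild-type median; limma p = 0.00477, adjusted p = 0.261). Treated Tg2576 lay -0.19 from wild type (-0.34 to -0.04; 9 of 11 below; adjusted p = 0.436), and the drug difference was 0.03 (-0.11 to 0.18). Without vehicle Tg2576 replicates 3 and 4 the genotype difference was -0.25 (adjusted p = 0.269).

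Calb2 (1451129_at) encodes calretinin. The most variable member within groups, its pooled log2 SD was 0.39, and 94.2% of tested probe sets had a smaller one. Signals were 103, 167 and 227 in wild type, 108, 231 and 337 in vehicle-dosed Tg2576 and 108, 187 and 239 in treated Tg2576. The high end of vehicle Tg2576 exceeded every animal of the other groups, but its low end lay among theirs. The genotype difference of 0.27 (95% interval -0.05 to 0.60; 8 of 11 above the wild-type median; limma adjusted p = 0.611) and the drug difference of -0.24 (-0.57 to 0.08; 10 of 11 below the vehicle median; adjusted p = 0.631) were of opposite sign, and treated Tg2576 lay 0.03 from wild type.

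Since calretinin and reelin have other cell sources, markers of those cells were read beside them. All 6 hilar mossy cell genes were tested, with 0 of 8 probe sets called in any comparison, and their summed signal had medians of 1043 in wild type (794 to 1107), 1052 in vehicle Tg2576 (978 to 1271) and 1099 in treated Tg2576 (992 to 1268). Most of that sum was Ociad2, with group means of 748, 803 and 827 against 1011, 1086 and 1105 for the sum. Calcrl, Drd2 and Csf2rb2 averaged 19.0, 19.4 and 15.1, near the filter limit of 13.9. Of 6 Cajal-Retzius genes only Trp73 passed the filter, and Lhx1, Lhx5, Ebf2, Ebf3 and Nhlh2 were below it. That list's summed signal had medians of 57.0, 61.2 and 52.0 in the same order, with ranges of 43.3 to 69.4, 33.9 to 106 and 36.3 to 74.2. Thalamic markers, which a dissection can carry along, summed to medians of 682 (579 to 811), 860.01 (524 to 1147) and 715 (666 to 845), with 0 of 14 probe sets called and Tnnt1 and Gbx2 below the filter. Striatal markers summed to 337 (269.9 to 434), 376 (302 to 455) and 346 (304 to 405), with 0 of 11 called. Over all probe sets 0.159% were called for genotype, 0.141% for drug and 0.144% for treated Tg2576 against wild type. At an unadjusted limma p under 0.05 the mossy cell, thalamic and striatal lists gave 0 of 8, 4 of 14 and 3 of 11 for genotype (9.7% of all probe sets). For drug the counts were 0, 2 and 3 (10.5%), and for treated Tg2576 against wild type 1, 1 and 0 (8.2%). The part of these cells in the Calb2 and Reln values was not tested.

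Sst (1417954_at), the peptide of dendrite-targeting interneurons, had the smallest p-value of any member. Its signal was 1451, 1647 and 2194 in wild type, 1034, 1451 and 1889 in vehicle-dosed Tg2576 and 1159, 1340.5 and 1691 in treated Tg2576. The groups stepped down in that order by median, and the ranges of all 3 overlapped. Treated Tg2576 lay -0.31 from wild type, a ratio of 0.804 (95% interval -0.48 to -0.15; 9 of 11 animals below the wild-type median; limma p = 0.000452, adjusted p = 0.105). Vehicle Tg2576 lay -0.24 from wild type (-0.40 to -0.07; 10 of 11 below; p = 0.00591, adjusted p = 0.283). The drug difference was -0.08 (-0.24 to 0.09; adjusted p = 0.796).

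The point estimate of the Sst genotype difference, -0.24 in the main fit, moved with the animals used and little with the covariate. No test was made between these estimates. Over replicates 1 to 5 vehicle Tg2576 lay -0.13 from wild type, and over replicates 6 to 11 it lay -0.33 (limma adjusted p = 0.689 and 0.144). Without vehicle Tg2576 replicates 3 and 4 the value was -0.29 (adjusted p = 0.202). With the level of thalamic and striatal markers as a covariate it was -0.26 (adjusted p = 0.337).

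Vip (1428664_at), the peptide of interneuron-selective cells and of some basket cells, went the other way. Its signal was 218, 297 and 347 in wild type, 255, 359 and 493 in vehicle-dosed Tg2576 and 271, 346 and 431 in treated Tg2576. Most Tg2576 animals of either treatment sat above the wild-type median, and the ranges overlapped. Vehicle Tg2576 lay 0.31 above wild type (95% interval 0.12 to 0.50; 9 of 11 above the wild-type median; limma p = 0.00225, adjusted p = 0.201), and treated Tg2576 lay 0.27 above it (0.08 to 0.46; 9 of 11 above; adjusted p = 0.35). The drug difference was -0.04 (-0.23 to 0.15). Over replicates 1 to 5 the genotype difference was 0.41 and over replicates 6 to 11 it was 0.22 (adjusted p = 0.274 and 0.421).

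Cck (1419473_a_at), the peptide of a class of basket cells that pyramidal cells also transcribe, read 1431, 1887 and 2136 in wild type, 1473, 1791 and 2063 in vehicle-dosed Tg2576 and 1529.6, 1732 and 1905 in treated Tg2576. The highest signal was lower in each successive group and the lowest was higher, so the spread narrowed: the log2 SD was 0.19, 0.16 and 0.11. This narrowing was not tested. Differences were -0.02 for genotype (95% interval -0.15 to 0.11) and -0.05 for drug (-0.18 to 0.08).

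Reln (1449465_at) encodes reelin, a secreted glycoprotein that binds the lipoprotein receptors Vldlr and Lrp8. Its signal was 376, 538 and 801 in wild type, 516, 629 and 713 in vehicle-dosed Tg2576 and 500.04, 575 and 789.7 in treated Tg2576. Wild type held both the lowest and the highest animal. The genotype difference was 0.14 (95% interval -0.04 to 0.32; 9 of 11 above the wild-type median; limma adjusted p = 0.656) and the drug difference -0.10 (-0.28 to 0.08; 10 of 11 below the vehicle median; adjusted p = 0.732).

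Lhx6 (1425094_a_at), the transcription factor that parvalbumin and somatostatin cells need for their development, read 81.4, 107 and 123 in wild type, 73.9, 98.3 and 135 in vehicle-dosed Tg2576 and 66.8, 98.9 and 136 in treated Tg2576. The Tg2576 groups spread wider on both sides, with a log2 SD of 0.26 and 0.23 against 0.16 in wild type. Its differences were -0.05 for genotype (95% interval -0.24 to 0.13) and 0.01 for drug (-0.17 to 0.20). A dim Lhx6 probe set (1422262_a_at), at 6.71 to 40.9 over all arrays, gave 0.05 and -0.03.

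**Figure D3:**
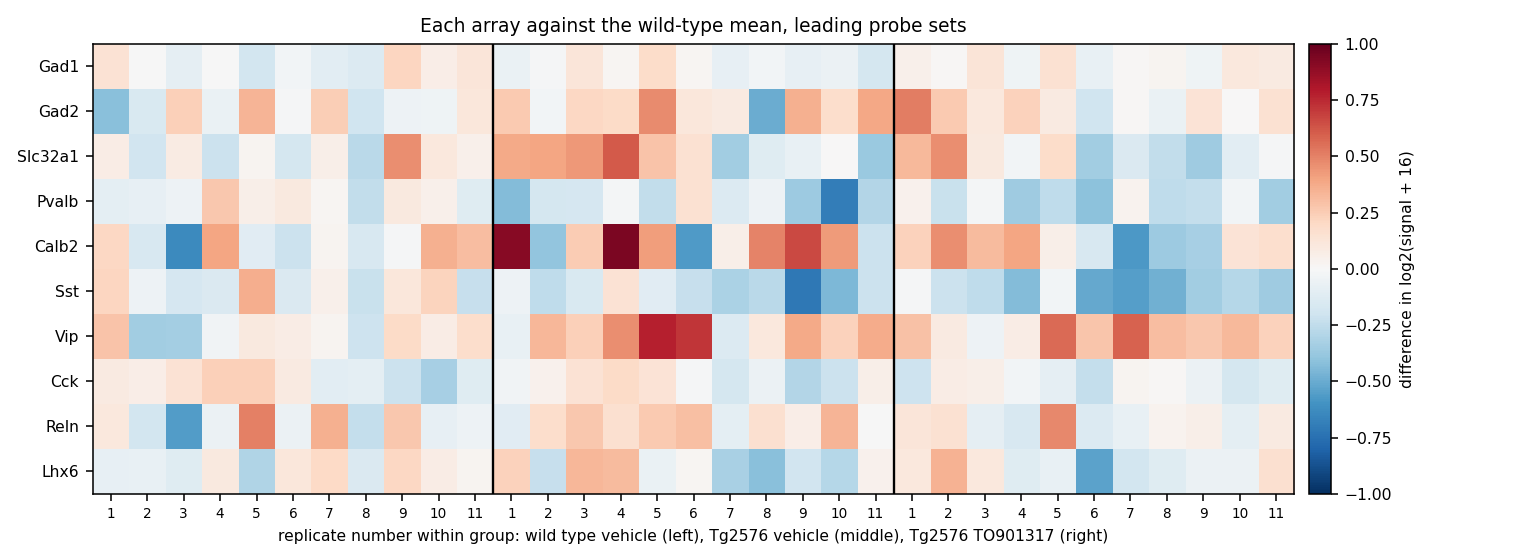
Heat map of each array's difference from the wild-type mean in log2(signal + 16) (colour, red above and blue below) for the leading probe set of each gene (rows) over the 33 animals in replicate order (columns; vertical lines part the groups). Sst is below the wild-type mean in most Tg2576 animals and Vip above it in most, while Calb2 has the widest swings in both directions.

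Most pairs of members correlated above 0 across animals, by an amount that depended on how the arrays were adjusted. With group means removed, 39 of the 45 pairs of the genes' brightest (leading) probe sets had a Pearson's r above 0 across 33 arrays, with a median of 0.25. After permutation within groups (100000 resamples, 2-sided) and Benjamini-Hochberg adjustment over the 45 pairs, 5 pairs were below 0.05. Both genes of a pair were read on the same arrays, so array quality can enter every value. No share was computed for pairs of other probe sets, so these counts cannot be read as a trait of the members. A setting added after the values were seen removed the means of replicates 1 to 5 and of replicates 6 to 11 in each group, with permutation within those sets. There 1 pair was below 0.05, the median r was 0.15 and 36 of 45 were above 0. Sst with Reln was no longer below 0.05 though its r was 0.52 against 0.48, so a lost call need not mean a lower r. Whether the numbering accounts for the lost calls was not tested. With each array's median signal taken out 3 pairs were below 0.05, with a median r of 0.16. Across the 33 arrays, r with the first principal component was -0.65 for Slc32a1, -0.54 for Gad1, -0.46 for Sst and -0.41 for Lhx6, given as a description.

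Slc32a1 stood in 3 of the 5 pairs, and none of the 3 was below 0.05 once the means of the replicate sets were removed. It correlated with Lhx6 (r = 0.62, Spearman's rho = 0.58, permutation p = 0.00037, adjusted p = 0.0063) and with Sst (r = 0.60, rho = 0.66, permutation p = 0.00042, adjusted p = 0.0063). With the 2 arrays whose Slc32a1 value lay farthest from its median left out, r was 0.67 for both. In the pairs below, the 2 arrays were picked by Gad1, Vip or Sst alone. Extreme values of the partner gene could therefore stay in. Within wild type, vehicle Tg2576 and treated Tg2576, r was 0.32, 0.64 and 0.76 with Lhx6 and 0.48, 0.60 and 0.75 with Sst. With the means of the replicate sets removed, r was 0.40 with Lhx6 (permutation adjusted p = 0.199) and 0.38 with Sst (permutation adjusted p = 0.326). Slc32a1 with Gad1 gave r = 0.54 (rho = 0.57, permutation p = 0.00094, adjusted p = 0.0106; 0.47 without 2 arrays), and 0.29 (permutation adjusted p = 0.344) once each array's median signal was taken out, or 0.44 (permutation adjusted p = 0.199) with the means of the replicate sets removed.

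Vip correlated with Reln (r = 0.56, rho = 0.53, permutation adjusted p = 0.0063; 0.54 without 2 arrays), and r was 0.68, 0.64 and 0.41 within the 3 groups. It was the 1 pair below 0.05 with the means of the replicate sets removed (r = 0.60, permutation adjusted p = 0.0333), and with array medians taken out it was 1 of the 3 (r = 0.54, permutation adjusted p = 0.0128). Sst with Reln gave r = 0.48 (rho = 0.47, permutation adjusted p = 0.0467 for r and 0.0621 for rho; 0.54 without 2 arrays), but within vehicle Tg2576 r was -0.02, against 0.69 in wild type and 0.71 in treated Tg2576. With the means of the replicate sets removed its r was 0.52 (permutation adjusted p = 0.199). For the 2 decarboxylases, Gad1 and Gad2, r was -0.14 (permutation adjusted p = 0.602). Sst and Vip, whose differences from wild type had opposite signs, gave r = 0.20 (permutation adjusted p = 0.505).

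**Figure D4:**
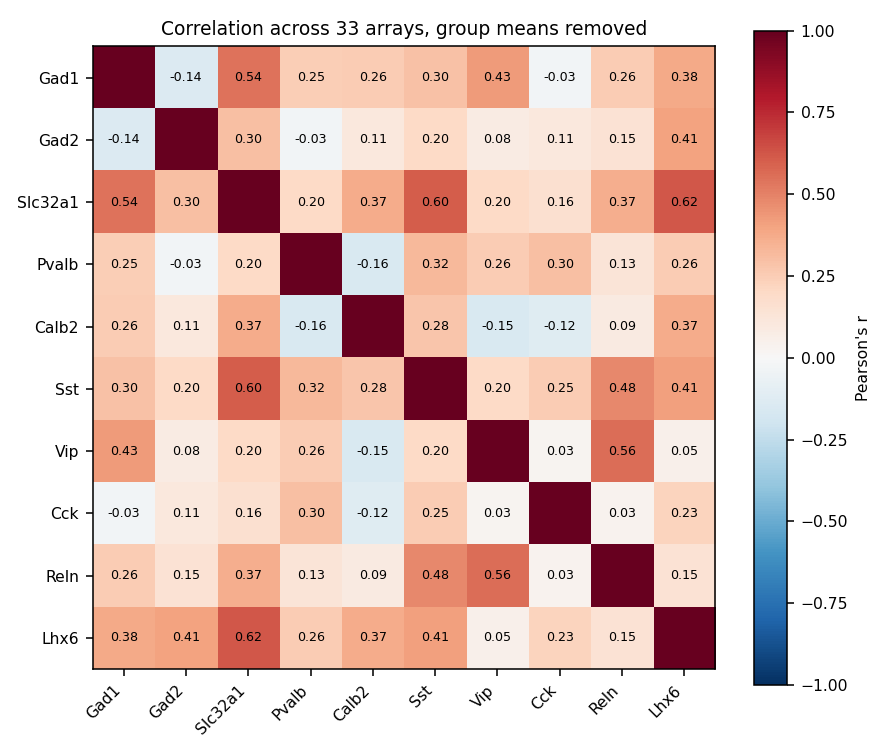
Pearson's r (colour and printed value) between the leading probe sets of the 10 genes across 33 arrays, each group's mean removed. The Slc32a1 row holds 3 of the 5 pairs that passed the adjusted limit, with Lhx6 (0.62), Sst (0.60) and Gad1 (0.54), none of which passed it with the means of replicates 1 to 5 and 6 to 11 removed.

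The genes outside the member list with the closest pattern over the 33 arrays were found for each member as the 3 of highest r, with group means removed and no test. For Sst they were Scp2 (r = 0.77), Emc7 (0.74) and 1110032A03Rik (0.72), and for Slc32a1 Tomm7, Sod1 and Tbc1d9b (all 0.77). Vip was closest to Nt5c3, Dpp10 and Gng4 (all 0.69), and Reln to Hpcal1 (0.83), Dpp10 (0.83) and Cbln1 (0.80). Pvalb was closest to Rora (0.72), Sgpp2 (0.67) and Gabrd (0.66). For Gad1 they were Adk (0.76), Anapc5 (0.75) and Ttyh1 (0.75), for Gad2 Fech (0.71), Pak2 (0.71) and Enah (0.68), and for Calb2 Pcbd1 (0.71), Noa1 (0.65) and Ptpre (0.63). Cck was closest to Tspyl4 (0.79), Mlip (0.77) and Cpt1c (0.76), and Lhx6 to Alg12 (0.76), Prdm16os (0.70) and Trhr (0.65). These values were picked as the highest of all tested probe sets, and they share arrays and their quality.

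Related genes of the same cells were read from lists. Among 22 further interneuron subtype genes, 19 were tested with 27 probe sets, and 2 of 27 were called lower between treated Tg2576 and wild type, against 0.074% of all probe sets called lower in that comparison. They were Npy, a peptide that many somatostatin and neurogliaform cells carry, and Crhbp, which binds corticotropin-releasing hormone and marks part of the somatostatin cells. In limma's other 2 comparisons 0 of 27 were called, with 5 of 27 for genotype and 4 of 27 for drug at an unadjusted p under 0.05, against 9.7% and 10.5% of all probe sets. The list's median was 0.05 in treated Tg2576 against wild type, beside 0.005 over all probe sets. The list was chosen with earlier results of these data known. The 2 calls are therefore a description of these genes and not a test of the list.

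Npy (1419127_at) read 622, 753 and 861 in wild type, 514, 602 and 1248 in vehicle-dosed Tg2576 and 401, 500.1 and 628 in treated Tg2576. All 11 treated animals were below the wild-type median, and the 2 ranges overlapped only at their edge. The difference was -0.55 (95% interval -0.75 to -0.34; limma adjusted p = 0.00688). Vehicle Tg2576 lay -0.20 from wild type (adjusted p = 0.519) and treated lay -0.35 from vehicle Tg2576 (adjusted p = 0.178). Vehicle Tg2576 replicate 10 held the 1248, and without it the genotype difference was -0.30 (adjusted p = 0.111).

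Crhbp (1436127_at) read 154, 178 and 226 in wild type, 129.7, 158 and 179.7 in vehicle-dosed Tg2576 and 114, 135 and 184 in treated Tg2576. Treated Tg2576 lay -0.34 from wild type (95% interval -0.49 to -0.19; 9 of 11 below; limma adjusted p = 0.0464), vehicle Tg2576 -0.22 (adjusted p = 0.26), and the drug difference was -0.11 (adjusted p = 0.623). The Crhbp call was at the limit: it was kept in 11 of 33 fits that left out 1 array, while that of Npy was kept in 33 of 33. It was also lost with the replicate block (adjusted p = 0.0637), without the filter (0.065), with the 2 groups alone (0.0759) and with the regional marker covariate (0.0664). Over replicates 1 to 5 treated Tg2576 lay -0.14 from wild type (adjusted p = 0.889), and over replicates 6 to 11 it lay -0.50 from it (adjusted p = 0.0359).

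**Figure D5:**
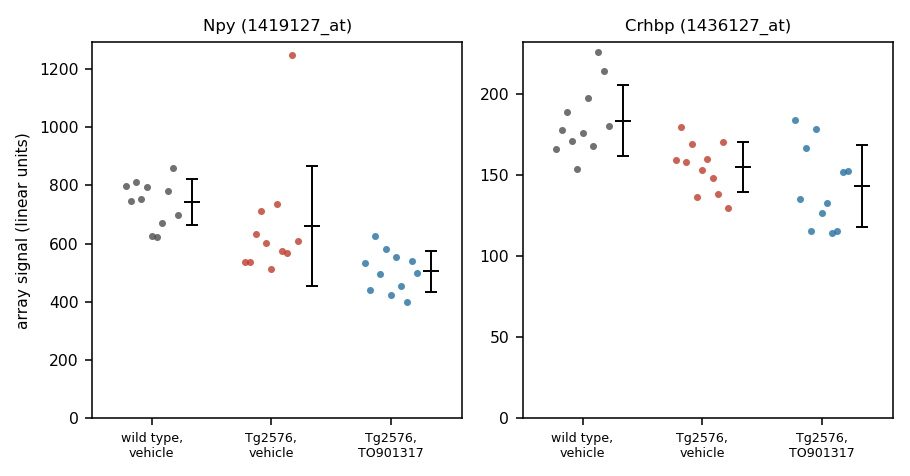
Array signal of Npy and Crhbp on a linear scale from 0, 1 point per animal in replicate order within each group, with the mean ± SD (n = 11) beside it. Treated Tg2576 animals lie at 401 to 628 for Npy, against 622 to 861 in wild type, and 1 vehicle Tg2576 animal stands at 1248.

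The other lists of the pathway gave no call in any of the 3 comparisons. These were GABA supply, uptake and breakdown (6 of 9 genes tested, 8 probe sets), interneuron transcription factors (8 of 14 genes, 18 probe sets), fast-spiking and perineuronal net genes (12 of 13 genes, 29 probe sets) and the receptors of somatostatin, Vip, cholecystokinin and reelin with the reelin adaptor Dab1 (8 of 12 genes, 19 probe sets). At an unadjusted p under 0.05 limma gave, in that order, 4 of 8, 0 of 18, 1 of 29 and 1 of 19 probe sets for genotype (9.7% of all probe sets), 1, 0, 4 and 0 for drug (10.5%), and 2, 1, 4 and 1 for treated Tg2576 against wild type (8.2%). The genotype medians of these lists were -0.11, -0.01, -0.06 and -0.01, against 0.0003 over all probe sets. Sstr1, Sstr5, Vipr2 and Cckar were the receptors below the filter, so no value is given for them.

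Marker lists of other cells were read in the same fit, where 0.159% of all probe sets were called for genotype and 9.7% (genotype) or 10.5% (drug) had an unadjusted limma p under 0.05. Probe sets of neurons in general (12), excitatory neurons (9), neocortex (11), choroid plexus (12), meningeal fibroblasts (10), oligodendrocytes (16) and microglia (8) gave 0 calls. Oligodendrocyte probe sets lay below 0 in 16 of 16 cases for genotype (median -0.19, 9 of 16 with an unadjusted limma p under 0.05) and above 0 in 16 of 16 for drug (median 0.17, 8 of 16). These 16 probe sets read 4 genes, and the probe sets of every list share the same arrays, so they are not independent cases. Both comparisons use the vehicle Tg2576 group, so opposite signs, here and for Camk2a below, are not separate results. The summed signal of the excitatory neuron markers had a median of 5299 in wild type (4881 to 6347), 4801 in vehicle Tg2576 (3735 to 5441) and 5402 in treated Tg2576 (4934 to 5887). Camk2a made up the largest part of that sum, so the sum is not a reading of the list as a class. Its group means were 3219, 2393 and 3151 in the same order, against 5385, 4627 and 5386 for the sum. Camk2a in that list lay -0.45 from wild type in vehicle Tg2576 (limma adjusted p = 0.0665; 10 of 11 below the median) and 0.43 above vehicle in treated Tg2576 (adjusted p = 0.0799; 11 of 11 above). Choroid plexus probe sets lay above 0 for drug in 12 of 12 cases (median 0.35, 0 of 12 with an unadjusted limma p under 0.05), and meningeal probe sets below 0 in 10 of 10 (median -0.18, 0 of 10). For genotype 8 of 10 meningeal probe sets lay above 0 (median 0.25, 6 of 10 with an unadjusted limma p under 0.05). Of dentate granule cell markers 1 of 13 probe sets, for Tdo2, was called and fell by 0.77 in vehicle Tg2576 against wild type (limma adjusted p = 0.00202; its other probe set -0.04), and of astrocyte markers 2 of 16 were called, both for Slc1a3, and fell by 0.36 and 0.44 (adjusted p = 0.0303 and 0.0292). The uncalled Slc1a3 probe sets lay at -0.33, -0.34 and -0.13. Dentate probe sets lay below 0 for genotype in 12 of 13 cases (4 of 13 with an unadjusted limma p under 0.05), and astrocyte probe sets in 13 of 16 (9 of 16). In the drug comparison 11 of 16 astrocyte probe sets lay above 0 (7 of 16) and 6 of 13 dentate probe sets did (2 of 13). The part of these cells in the member values was not tested.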

How the data were processed

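Total RNA was read on 33 arrays, 11 animals in each of 3 groups. The authors deposited linear intensity for each probe set, computed with MAS5 per the submitters' processing notes, whose version is not given in the sources used here. Per the labels, replicates are biological, so p-values measure the spread between animals. Members and lists were chosen with earlier results of these data known.

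Intensity was taken to log2(signal + 16). Probe sets in the lowest 40% by mean (limit 13.9) were left out, and 27022 were fitted together with 1 mean per group in limma 3.58.1 (R 4.3.3; trend and robust eBayes, Benjamini-Hochberg, limit 0.05). The code was tested on simulated data. Named were all member probe sets, called list genes, and for each member the 3 genes of highest correlation. A leading probe set is a gene's brightest. Gene names are those of GEO's annotation of the array and may be outdated; 34945 probe sets carry 1 gene, 932 several and 9160 none here. Of 148 list genes, 138 were named. Promoter sequences came from RefSeq and matched 9 of 10 members.

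Alternatives were the pseudocount (1 and 64), the filter, quantile normalization, gene level, 2 groups only, the replicate block, the Gapdh ratio and regional marker covariates, and leaving out arrays. Depth has no meaning for arrays; 11 per group limits precision.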

Additional observations from a re-analysis of the deposited data

How the results depend on the processing

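No member was called under any alternative or in any of 33 fits that left out 1 array. Of 570 alternatives over 39 member differences, 528 kept the direction and 42 reversed it, all of them uncalled; the cause was not tested. The splits by replicate number and the removal of their means or of array medians were chosen after seeing the data. The closest approach was Sst in treated Tg2576 against wild type, at adjusted p = 0.0549 after quantile normalization. Animals of the same replicate number were not treated as pairs in the main fit. Of 33 same-numbered pairs 13 had deviations correlated above 0.1 (-0.15 to 0.26). Pairs of different numbers were not read beside them, so these values cannot decide whether the numbers pair the animals. With the replicate block 50 probe sets were called for genotype, 38 for drug and 42 for treated against wild type, with 0 members and adjusted p = 0.0648 for Sst in the last; Crhbp was not called (0.0637). All probe sets called for genotype numbered 43, against 25 when only the 2 groups were used, 66 with the Gapdh ratio as a covariate and 25 to 58 leaving out 1 array (25 without wild-type replicate 3). For drug 38 became 59 under a 60% filter, 9 without vehicle Tg2576 replicates 3 and 4 and 14 to 51 leaving out 1 array (14 without treated replicate 6). For treated against wild type 39 became 66 under the 60% filter, 59 with the Gapdh covariate and 25 to 61 leaving out 1 array (25 without wild-type replicate 1, 61 without treated replicate 11). Correlated pairs went from 5 to 1, Vip with Reln, with the means of replicates 1 to 5 and 6 to 11 taken out, and from 5 to 3 with the array median taken out, Gad1 with Slc32a1 at 0.29 and Sst with Reln at 0.45 (adjusted p = 0.102), and quantile normalization left Gad1 with Slc32a1 at 0.35 (adjusted p = 0.199). Crhbp in treated Tg2576 against wild type was also not called without a filter (adjusted p = 0.065), with 2 groups only (0.0759) or with the regional covariate (0.0664), and Npy was not called within replicates 1 to 5 (-0.54, 0.0636) or 6 to 11 (-0.55, 0.371).

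Reversed genotype differences were, over replicates 1 to 5, Gad1 0.074, Lhx6 0.21 and its dim probe set -0.14; over replicates 6 to 11, Cck 0.014 and Slc32a1 -0.16; and with the regional covariate, Cck 0.058 and dim Lhx6 -0.028. Leaving out 1 array gave Gad1 -0.035 to 0.0065, Cck -0.052 to 0.0080, dim Gad2 -0.0079 to 0.093 and dim Lhx6 -0.022 to 0.090. Reversed drug differences were, over replicates 1 to 5, Gad2 0.020, dim Gad2 0.22, Lhx6 -0.045 and dim Lhx6 0.19; over replicates 6 to 11, Cck 0.023 and Vip 0.057; and with the regional covariate, dim Lhx6 0.019. Leaving out 1 array gave Pvalb -0.012 to 0.072, dim Gad2 -0.054 to 0.028, Lhx6 -0.027 to 0.061, dim Lhx6 -0.070 to 0.042 and Vip -0.083 to 0.0074. For treated against wild type they were, over replicates 1 to 5, Slc32a1 0.25 and Lhx6 0.17; over replicates 6 to 11, Gad1 -0.0020, Cck 0.037, Gad2 -0.0021, dim Gad2 -0.12, dim Lhx6 -0.0064, Reln -0.053 and Calb2 -0.24; with the regional covariate, Slc32a1 0.016 and dim Lhx6 -0.0092; and with the Gapdh covariate, Slc32a1 0.014 and dim Lhx6 -0.0028. Leaving out 1 array gave dim Gad2 -0.021 to 0.078, dim Lhx6 -0.036 to 0.072, Slc32a1 -0.064 to 0.030, Lhx6 -0.079 to 0.0086, Reln -0.022 to 0.084 and Calb2 -0.033 to 0.091.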

Other observations

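In the comparison of both Tg2576 groups averaged against wild type (22 animals against 11), which called none of the members in limma, values of single genes were as follows. Sst, the peptide of dendrite-targeting interneurons, lay -0.28 from wild type (95% interval -0.42 to -0.13; limma p = 0.000382, adjusted p = 0.0969), and 19 of 22 Tg2576 animals were below the wild-type median. Pvalb lay -0.20 from wild type with 19 of 22 below (adjusted p = 0.237), and Vip lay 0.29 above it with 18 of 22 above (adjusted p = 0.155). Gad2 had 19 of 22 animals above the wild-type median at a difference of 0.14 (adjusted p = 0.681), while its dimmer probe set had 12 of 22 above at 0.05 (adjusted p = 0.948). The dimmer Gad1 probe set lay 0.14 above wild type with 13 of 22 above (limma p = 0.0278, adjusted p = 0.508). Npy lay -0.37 from wild type with 21 of 22 below (adjusted p = 0.0675) and Crhbp -0.28 with 19 of 22 below (adjusted p = 0.06).

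Pnoc, the precursor of the peptide nociceptin, which some hippocampal interneurons carry, lay -0.28 from vehicle Tg2576 in treated Tg2576 (limma adjusted p = 0.059), with 10 of 11 animals below the vehicle median. It was singled out after its values were seen.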
